A study of Mus musculus with 4 samples.

Results

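*Irx1*, *Irx2* and *Pou3f4* are known as transcription factor genes of the pancreatic alpha cell, and their messages were measured in whole mouse islets at low and at high glucose. They were taken by name, 3 genes of the 24157 gene symbols and lncRNAs in the deposited table, and each has a single entry there. Islets of male C57bl6 mice of 3 months of age were pooled, cultured overnight at 11 mM glucose, held for 2 h at 2.8 mM glucose and then either left at 2.8 mM or moved to 16.8 mM glucose, with 2 libraries of total RNA at each concentration. This last step took 12 h at both concentrations in the study's design. In the labels of the samples it is 12 h at 16.8 mM and 2 h at 2.8 mM, and this conflict was not resolved, so concentration and time may differ together between the groups. These 4 libraries were made from whole islets, not sorted alpha cells, and the labels call the cell type mixed, so fewer alpha cells and less message per alpha cell cannot be told apart. All islets shared 1 pool, so the p-values below measure only the spread between libraries of that pool, which may be technical.

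Alpha cells secrete glucagon, the hormone that raises blood glucose when it falls, and they lie among a majority of insulin-producing beta cells in the mouse islet. *Irx1* and *Irx2* encode Iroquois homeodomain proteins, DNA-binding factors that usually lie in clusters of several family genes on a chromosome and pattern the heart, nervous system and other organs in the embryo. In islets of the mouse they are known as genes of the alpha and not of the beta cell. *Pou3f4*, also called Brn4, encodes a POU domain factor that binds the proximal promoter of the glucagon gene and activates it.

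The levels are given in RPKM, reads scaled to transcript length and library depth, where the length is that of the whole genomic span of the transcript, introns included. A gene with long introns therefore has a low value, and levels of different genes are comparable only per kilobase of that span. Library depth was recovered as 58460000 and 51960000 reads for the libraries at 2.8 mM and 60710000 and 50800000 reads for those at 16.8 mM. Within these 4 libraries the alpha cell identity of the signal could be looked at only through marker genes. The study's libraries of sorted alpha and beta cells were not analysed here. All 13 alpha cell markers were found above 0 in the libraries, from *Ldb2* at 0.0021 to 0.0043 RPKM to *Gcg*, the glucagon gene, at 1474 to 2155 RPKM. A level above 0 at this depth does not tell which cells gave the members' reads. The summed level of 6 acinar cell markers, which report digestive tissue carried along with the islets, was 52.2 and 146.5 RPKM at 2.8 mM and 125.7 and 244.4 RPKM at 16.8 mM in libraries 1 and 2. The libraries therefore differed within each concentration in how much acinar message they held, and both libraries 2 held more than the library 1 at the same concentration. Between the concentrations the 6 markers had a median log2 fold change of 1.02 in limma, where 0 passed (3 at an unadjusted p under 0.05). In voom it was 1.08 and all 6 passed as higher at 16.8 mM, against 13.3% of all genes. The summed levels overlapped, since library 2 at 2.8 mM was above library 1 at 16.8 mM. Whether glucose or unequal carry-over gave this difference was not tested.

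*Irx1* and *Irx2* lie on chromosome 13 (NCBI build 37) at chr13:72095680-72101171 on the minus strand and chr13:72766245-72771644 on the plus strand, so that their 5′ ends face each other across the gap and they are transcribed in opposite directions. *Pou3f4* is a gene without introns on the X chromosome, at chrX:108009729-108010910 on the plus strand. The 250 bases upstream of the *Irx2* and *Pou3f4* starts are printed because the *Irx2* stretch lies between *Irx2* and a lncRNA gene, *Gm20554*, that was measured in the same libraries. In RefSeq on GRCm38.p6 the 2 genes are transcribed away from each other from starts 256 bp apart, and their upstream windows share 245 bases. The RefSeq gene span of *Irx2*, which also takes in predicted transcripts, overlaps *Gm20554*, and whether the counting used strand is not stated, so reads of the pair may be shared. The sequences are from RefSeq on GRCm38.p6, at chr13:72628570-72628819 and chrX:110814129-110814378, both on the plus strand, and capitals mark every GGGCGG and every CCAAT on either strand (the latter reads ATTGG on the other strand).

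Irx2: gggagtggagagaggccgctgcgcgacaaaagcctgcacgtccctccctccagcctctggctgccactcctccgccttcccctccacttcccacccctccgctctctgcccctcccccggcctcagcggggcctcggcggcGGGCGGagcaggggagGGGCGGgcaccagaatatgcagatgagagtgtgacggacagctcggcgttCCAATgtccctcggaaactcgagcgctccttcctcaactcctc

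Pou3f4: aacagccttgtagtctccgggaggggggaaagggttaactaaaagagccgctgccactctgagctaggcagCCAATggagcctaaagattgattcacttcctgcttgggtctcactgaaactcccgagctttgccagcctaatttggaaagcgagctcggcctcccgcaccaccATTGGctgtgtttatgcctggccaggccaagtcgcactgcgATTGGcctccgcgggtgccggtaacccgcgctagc

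The *Irx2* window held 2 copies of GGGCGG, the GC box, and 1 of CCAAT. The *Pou3f4* window held no GC box and 3 copies of CCAAT. Of 32851 promoter windows, 32.7% held a GC box and 33.8% a CCAAT on either strand. Neither window held CACGTG (6.02% of all windows) or TATAAA (12.4%). Both windows were rich in CpG, the dinucleotide typical of CpG islands, with 19 copies in that of *Irx2* and 13 in that of *Pou3f4* against a median of 6. Their GC content was 68.4% and 58%, against a median of 52.4%. These counts describe the letters only.

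*Irx2* was the most abundant of the 3 genes per kilobase of span and *Pou3f4* the least. *Irx2* stood above 84.9% of all genes in the table by its mean RPKM over the libraries, *Irx1* above 77.3% and *Pou3f4* above 65.5%. These ranks depend on the span and are not ranks of read number. The alpha cell marker *Gria3*, with 1558 to 2648 reads a library, ranked below *Pou3f4*, with 27 to 65. The order *Irx2*, *Irx1*, *Pou3f4* held in each of the 4 libraries, and the ranges of neighbours in that order did not overlap.

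*Irx1* measured 1.45 and 1.16 RPKM at 2.8 mM glucose and 1.66 and 1.46 RPKM at 16.8 mM in libraries 1 and 2. Both libraries at 16.8 mM were higher than both at 2.8 mM, though the lower of them exceeded the higher one at 2.8 mM by less than the counting error. The means were 1.31 ± 0.206 and 1.56 ± 0.146 RPKM (SD, n = 2 each). On the log2(RPKM + 0.5) scale its log2 fold change was 0.19 with a standard error of 0.11, a 95% interval from -0.06 to 0.44 and an adjusted p of 0.195 in limma. *Irx1* therefore did not pass the threshold of 0.05, which 33.4% of the 7867 tested transcripts passed in either direction, 10.7% as higher and 22.8% as lower at 16.8 mM. In voom, the limma test on reconstructed read numbers, it did not pass either (adjusted p = 0.187).

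*Irx2* measured 2.73 and 1.97 RPKM at 2.8 mM and 3.01 and 2.40 RPKM at 16.8 mM. The groups overlapped, since library 1 at 2.8 mM was above library 2 at 16.8 mM. The means were 2.35 ± 0.534 and 2.71 ± 0.433 RPKM (SD, n = 2 each), and the log2 fold change was 0.18 with a standard error of 0.15, a 95% interval from -0.18 to 0.54 and an adjusted p of 0.396 in limma. It did not pass in voom either (adjusted p = 0.283), and its interval covers falls as well as rises.

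*Pou3f4* measured 1.02 and 0.479 RPKM at 2.8 mM and 0.622 and 0.562 RPKM at 16.8 mM. Library 1 at 2.8 mM stood above the other 3, and the 16.8 mM libraries lay between the 2 at 2.8 mM. These values rest on 65, 27, 41 and 31 reads, so counting alone gives a 95% Poisson interval of 0.791 to 1.31 RPKM in library 1 and 0.316 to 0.697 RPKM in library 2 at 2.8 mM. The means were 0.752 ± 0.386 and 0.592 ± 0.0424 RPKM (SD, n = 2 each). With a mean under 1 RPKM, *Pou3f4* was tested with voom, where the log2 fold change was -0.26 with a standard error of 0.36, a 95% interval from -1.02 to 0.51 and an adjusted p of 0.596. In that test 41.8% of 19040 genes passed, 13.3% as higher and 28.5% as lower at 16.8 mM. The interval of *Pou3f4* is much wider than those of the Iroquois genes, and at this depth neither a fall nor a rise within it was detectable.

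**Figure D1:**
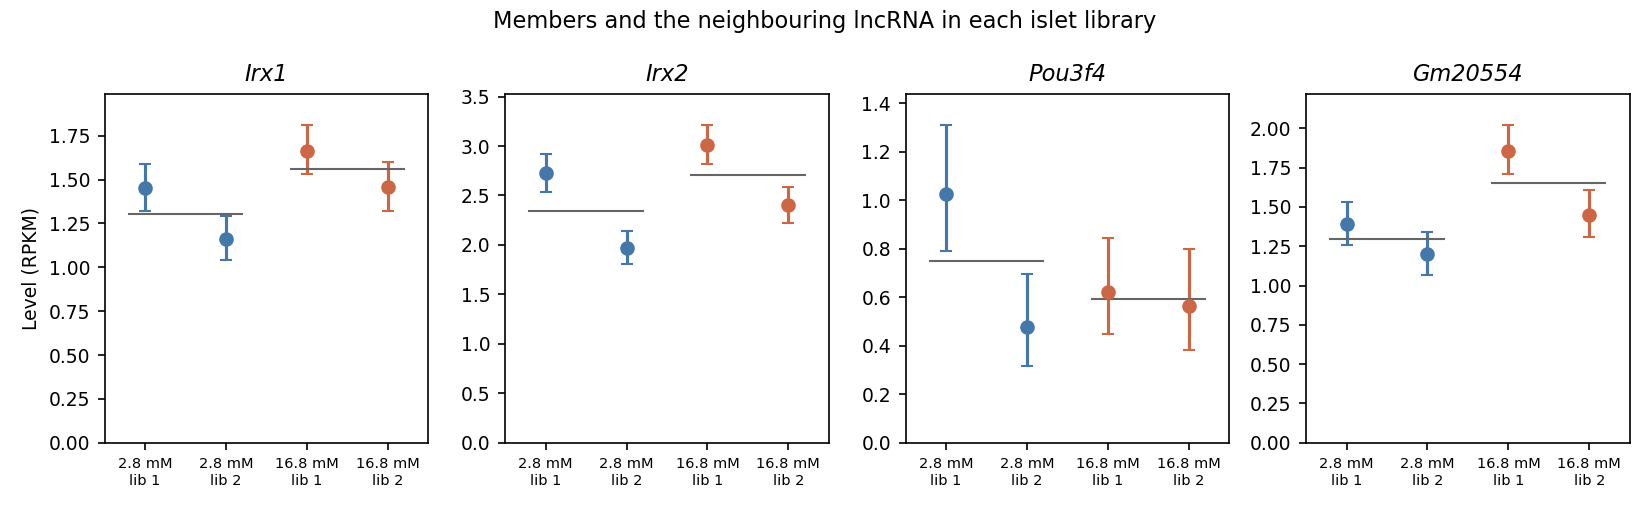
Levels in RPKM (y axis, from 0) of the 3 genes and of *Gm20554* in each library (x axis, blue for 2.8 mM and orange for 16.8 mM glucose). Bars are 95% Poisson intervals of the read number, covering counting error only, and grey lines are group means; both 16.8 mM points of *Irx1* and *Gm20554* lie above their 2.8 mM points, whereas those of *Irx2* and *Pou3f4* overlap with them.

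The place of the Iroquois genes in the comparison depends on how the libraries are scaled. The median log2 change over all tested transcripts was -0.11 in limma and -0.13 in voom, so most genes were read as slightly lower at 16.8 mM. Relative to that median, *Irx1* stood 0.30 and *Irx2* 0.29 higher, above 81.6% and 80.7% of the tested transcripts. *Pou3f4* stood 0.13 below the voom median. With each library centred on its median transcript, *Irx1* was 0.28 higher at 16.8 mM and passed (limma, adjusted p = 0.032), while *Irx2* was 0.26 higher and did not (adjusted p = 0.167). That scaling moved the share of calls that were higher at 16.8 mM from 31.9% to 44.1%, and quantile normalization moved it to 42.3% and gave *Irx1* an adjusted p of 0.0452. Scaling voom to the median gene moved the median of all genes from -0.13 to 0.03.

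**Figure D2:**
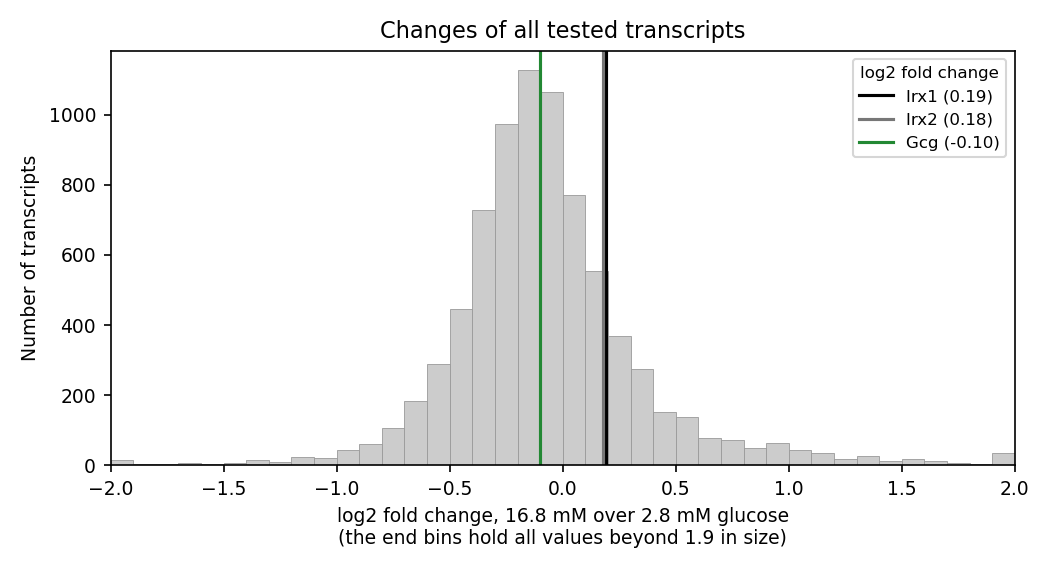
Number of transcripts (y axis) by log2 fold change, 16.8 mM over 2.8 mM glucose (x axis), for the 7867 transcripts tested in limma, with the end bins holding all values beyond 1.9 in size. The lines of *Irx1* (0.19) and *Irx2* (0.18) almost coincide on the right shoulder, and that of *Gcg* (-0.10) lies near the centre of the distribution.

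Single libraries also weighed on the values. The change of *Irx2* went from 0.18 to -0.02 without library 2 at 2.8 mM, and to 0.04 without library 1 at 16.8 mM. That of *Pou3f4* went from -0.26 to 0.30 in voom without library 1 at 2.8 mM, and to -0.78 without library 2 at 2.8 mM. *Irx1* kept its sign without each library in turn, with changes from 0.08 to 0.43 over limma and voom.

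Whether the 3 genes changed differently from each other was asked with their difference within each library. *Irx2* exceeded *Irx1* on the log2(RPKM + 0.5) scale by 0.73 and 0.57 at 2.8 mM and by 0.70 and 0.57 at 16.8 mM. The excess was nearly the same at both concentrations, with a difference in change of -0.02 (exact permutation test, two-sided, p = 0.667). Without library 1 at 2.8 mM or without library 2 at 16.8 mM this small difference had the opposite sign (0.06 and 0.05). *Pou3f4* lay below *Irx1* by 0.36 and 0.76 at 2.8 mM and by 0.95 and 0.88 at 16.8 mM. The groups did not overlap, and the gap was 0.35 wider at 16.8 mM (exact permutation test, p = 0.333, which is the smallest p that 2 against 2 libraries allow). Against *Irx2* the gap of *Pou3f4* was 0.34 wider, with the same p of 0.333 in the exact permutation test. Over these 3 pairs the adjusted p was 0.667 for the Iroquois pair and 0.5 for both pairs with *Pou3f4*, and the design could not reach 0.05.

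Of the other Iroquois genes, *Irx3*, *Irx5* and *Irx6* form a second cluster elsewhere in the mouse genome, and *Irx4*, a gene of the heart ventricle, completes the cluster of *Irx1* and *Irx2*. Their levels lay between 0.0075 and 0.0786 RPKM in every library, from 3 to 15 reads a gene and library, so both *Irx1* and *Irx2* were over 10 times as abundant per kilobase as any of them in every library. *Irx3* measured 0.0163 and 0.0367 RPKM at 2.8 mM and 0.0786 and 0.0501 RPKM at 16.8 mM, the highest mean of the 4, though in library 1 at 2.8 mM it lay below *Irx5* (0.0327 RPKM). With a mean of fewer than 20 reads, these 4 genes entered neither test, and none passed in limma with no minimum level (adjusted p = 0.209, 1, 0.762 and 0.252 for *Irx3* to *Irx6*). At the shared locus, *Irx4* lies beyond *Irx2* and held 4, 8, 8 and 5 reads, so the 3 genes of the cluster were very unequal in islets.

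Among the 14 other POU genes, *Pou6f1* had the highest level per kilobase of span. It measured 1.58 and 1.74 RPKM at 2.8 mM and 1.85 and 1.73 RPKM at 16.8 mM, a range that overlaps that of *Irx1*. By reads the order differs, with 1925 to 2742 a library for *Pou2f1*, 2168 to 2775 for *Pou6f1* and 27 to 65 for *Pou3f4*. *Pou6f1* did not pass in limma (log2 fold change 0.09, adjusted p = 0.459). *Pou2f1*, or Oct-1, a widely expressed factor that also binds the glucagon promoter, measured 0.341 and 0.331 RPKM at 2.8 mM and 0.267 and 0.276 RPKM at 16.8 mM. *Pou2f3* measured 0.194 and 0.178 RPKM and then 0.139 and 0.129 RPKM. Both fell in voom, by 0.31 (adjusted p = 0.0152) and by 0.48 (adjusted p = 0.00494) on the log2 scale, but with libraries scaled to the median gene only *Pou2f3* passed (adjusted p = 0.0106, against 0.0958 for *Pou2f1*). The class III relatives *Pou3f1*, *Pou3f2* and *Pou3f3*, known from brain and Schwann cells, lay at or below 0.0455 RPKM in each library, so *Pou3f4* was the class III gene with by far the highest level.

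**Figure D3:**
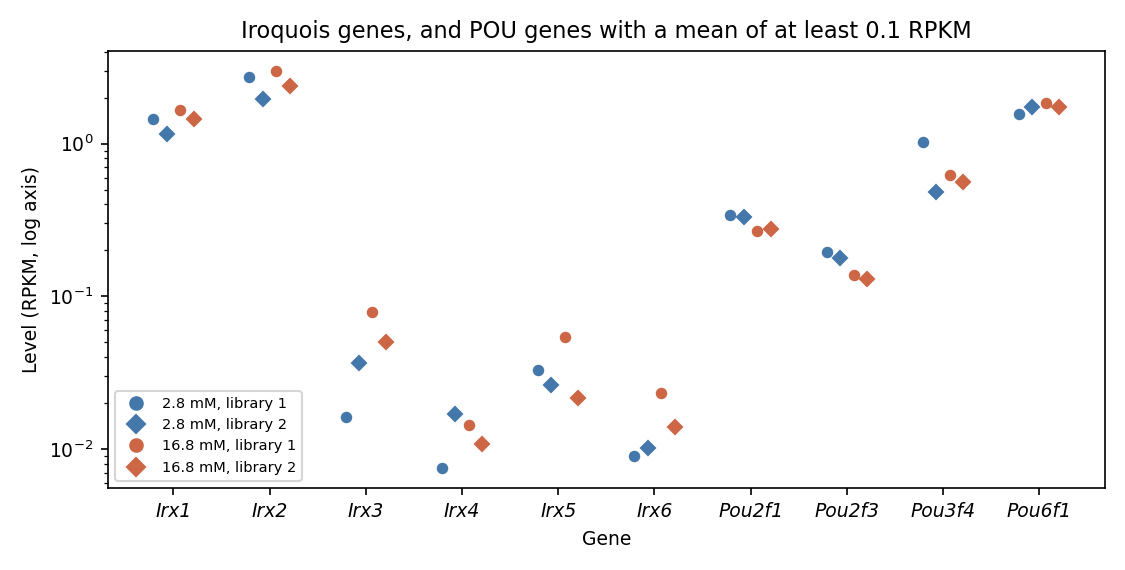
Level in RPKM on a log axis of the 6 Iroquois genes and of the POU genes with a mean of at least 0.1 RPKM, with 1 point a library (blue for 2.8 mM, orange for 16.8 mM, circles for library 1 and diamonds for library 2). *Irx1* and *Irx2* lie above 1 RPKM while *Irx3* to *Irx6* lie below 0.1 RPKM, and *Pou3f4* lies between *Pou2f1* and *Pou6f1*.

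The lncRNA *Gm20554*, transcribed away from *Irx2*, had 1.39 and 1.20 RPKM at 2.8 mM and 1.86 and 1.45 RPKM at 16.8 mM. Its groups did not overlap, and its log2 fold change of 0.26 with a standard error of 0.11 did not pass in limma (adjusted p = 0.117). Centred on the median transcript of each library it passed (adjusted p = 0.0275). The ratio of *Irx2* to *Gm20554* changed by -0.13 on the log2 scale (exact permutation test, p = 0.667). Within 1 Mb of *Irx2*, RefSeq on GRCm38.p6 places, beside *Irx1* and *Irx4*, *Ndufs6*, a subunit of respiratory complex I, *Mrpl36*, a mitochondrial ribosomal protein, *Lpcat1*, *Slc6a3*, *Clptm1l* and *Tert*. *Ndufs6* (2.21 to 2.74 RPKM), *Mrpl36* (14.3 to 17.3 RPKM) and *Clptm1l* (6.65 to 8.46 RPKM) were tested in limma and did not pass, with changes of -0.12, -0.10 and -0.24. *Clptm1l* passed as lower in voom (adjusted p = 0.0361). The noncoding *D730050B12Rik*, also near *Irx2*, was listed at 0 in every library.

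The other genes within 1 Mb of *Pou3f4* had low levels per kilobase of span. *Rps6ka6*, *Hdx* and *Cylc1* had 0.0029 to 0.0165 RPKM, and *Gm7134* was listed at 0. *Pou3f4* was thus the one gene of that window with a mean above 0.1 RPKM, a measure that depends on the span. By reads, *Rps6ka6* (103 to 144 a library) and *Hdx* (71 to 127) exceeded *Pou3f4* (27 to 65) in every library.

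Of the 13 alpha cell markers, 8 were tested in limma, of which 2 rose, 1 fell and 5 did not pass, and their median change was -0.11, the same to 2 decimals as that over all transcripts. That is 3 of 8, against 33.4% of all tested transcripts, so the share called was near the background. *Gcg* measured 2155 and 1653 RPKM at 2.8 mM and 2100 and 1474 RPKM at 16.8 mM. Its groups overlapped and it did not pass (log2 fold change -0.10, adjusted p = 0.721). *Tm4sf4*, a membrane protein of the tetraspanin-like family, rose from 8.04 and 6.75 RPKM to 10.7 and 10.7 RPKM (limma log2 fold change 0.51, adjusted p = 0.0199). *Gc*, the vitamin D-binding protein, rose from 1.74 and 1.29 RPKM to 2.03 and 2.21 RPKM (0.39, adjusted p = 0.0456). *Slc7a2*, a transporter of arginine and lysine, fell from 4.63 and 4.26 RPKM to 3.39 and 3.06 RPKM (-0.41, adjusted p = 0.0222). Without library 2 at 16.8 mM limma called 0 of the 8, with 4 at an unadjusted p under 0.05, and voom called 6 of 13. With all libraries voom called 5 of 13 higher and 3 lower, against 41.8% of all genes in either direction.

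Of the alpha cell markers with a mean under 1 RPKM, *Etv1*, an ETS transcription factor, measured 0.440 and 0.369 RPKM and then 0.677 and 0.591 RPKM, and rose in voom by 0.65 (adjusted p = 1.67e-04). Of the remaining markers, *Ttr*, the thyroid hormone carrier transthyretin, measured 45.3 and 32.4 RPKM and then 58.7 and 52.6 RPKM, which did not pass in limma (adjusted p = 0.0613) and passed in voom (0.54, adjusted p = 0.00241). *Gria3*, a glutamate receptor subunit, rose in voom by 0.37 (adjusted p = 0.00915). *Slc38a5*, a glutamine transporter of alpha cells, did not pass in limma (-0.31, adjusted p = 0.0916) and fell in voom (-0.45, adjusted p = 0.0335). *Peg10*, *Smarca1* and *Ldb2* did not pass in the test that covered them.

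The 11 regulators of the glucagon gene, the set to which *Pou3f4* belongs by function, include several factors that beta cells share. Of the 6 tested in limma, 4 rose and none fell, against 10.7% higher and 22.8% lower over all transcripts. In voom 9 were tested, of which 5 were called higher and 3 lower, against 13.3% and 28.5% over all genes. *Nkx2-2* went from 12.2 and 11.3 RPKM to 19.6 and 18.7 RPKM (limma log2 fold change 0.69, adjusted p = 0.00576), *Isl1* from 7.91 and 7.13 to 12.5 and 11.2 RPKM (0.62, adjusted p = 0.00891), *Neurod1* from 19.1 and 15.7 to 26.8 and 26.6 RPKM (0.61, adjusted p = 0.0157) and *Pax6* from 7.67 and 7.63 to 12.6 and 10.9 RPKM (0.58, adjusted p = 0.0108). These 4 are islet factors of both alpha and beta cells. *Foxa2*, a pioneer factor of gut and pancreas, measured 12.9 and 11.4 RPKM and then 14.6 and 14.6 RPKM and did not pass in limma (0.26, adjusted p = 0.136), though it did in voom (adjusted p = 0.0359). In voom *Creb1* passed as lower (-0.25, adjusted p = 0.0398), which it did not with scaling to the median gene (adjusted p = 0.141), and *Cdx2* and *Foxa1* lay at or below 0.0155 RPKM, under the minimum level of both tests, and did not pass in limma with no minimum (adjusted p = 0.372 and 0.785).

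The 9 factors listed as shared by alpha and beta cells include the same 4 and, in addition, *Rfx6* and *Myt1*, which fell. *Rfx6*, required for islet cells to form, went from 3.26 and 3.19 RPKM to 2.35 and 2.06 RPKM (limma log2 fold change -0.46, adjusted p = 0.0109). *Myt1*, a zinc finger factor of endocrine cells, went from 2.14 and 2.09 to 1.55 and 1.37 RPKM (-0.41, adjusted p = 0.0119). *Insm1*, an early endocrine factor, did not pass in limma (-0.29, adjusted p = 0.155) but passed as lower in voom (adjusted p = 0.0261). Of the 9 factors, 8 were tested in limma, of which 4 rose and 2 fell, against 10.7% higher and 22.8% lower over all transcripts. Voom called 5 of the 9 higher and 3 lower, against 13.3% and 28.5% over all genes.

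Most beta cell factors rose by more than the intervals of *Irx1* and *Irx2* hold. Of 5, 4 were tested in limma and 3 rose, against 10.7% of all transcripts called higher at 16.8 mM. *Mafa*, an activator of the insulin gene, went from 13.7 and 10.2 RPKM to 57.5 and 76.2 RPKM (log2 fold change 2.44, adjusted p = 4.19e-04). *Pdx1* went from 4.92 and 4.35 to 11.5 and 12.8 RPKM (1.30, adjusted p = 5.95e-04) and *Mnx1* from 1.23 and 0.915 to 2.68 and 2.51 RPKM (0.98, adjusted p = 0.00139). The 95% intervals of these 3 do not overlap those of *Irx1* and *Irx2*. *Nkx6-1* did not pass in limma (0.29, adjusted p = 0.126) but did in voom (adjusted p = 0.0267), and *Pax4* lay at or below 0.0049 RPKM. Voom called all 4 tested factors higher, against 13.3% of all genes.

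**Figure D4:**
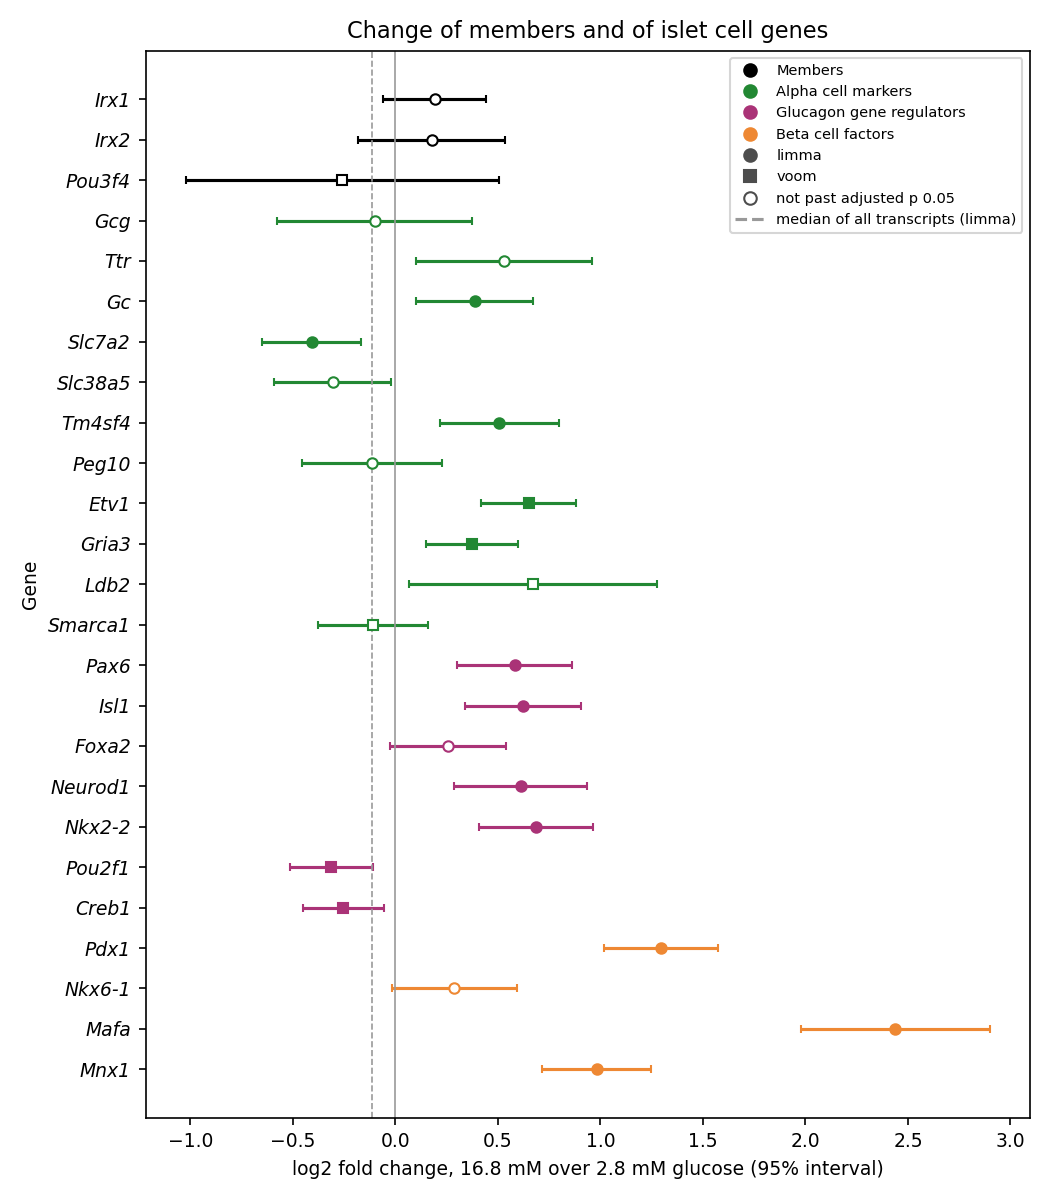
Log2 fold change, 16.8 mM over 2.8 mM glucose, with its 95% interval (x axis) for each gene (y axis), from limma (circles) or, for genes with a mean under 1 RPKM, from voom (squares). Filled symbols passed an adjusted p of 0.05; the intervals of all 3 members span 0, alpha cell markers lie on both sides of it, and *Mafa*, *Pdx1* and *Mnx1* lie furthest to the right.

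The study's own comparison of sorted cells, made on other libraries, gives a wider frame. Among its 100 genes most enriched in alpha over beta cells, which include *Irx1* and *Irx2* but not *Pou3f4*, 99 were found and 30 tested in limma. The list also holds markers used here for other cells, such as *Ptprc* and *Csf1r* of macrophages, *Col3a1* of stromal cells and *Ghsr* of delta cells. Of those tested, only *Higd1a*, a mitochondrial protein induced by hypoxia, rose (0.76, adjusted p = 0.00468). Only *Nudt11*, a diphosphoinositol polyphosphate hydrolase, fell (-0.55, adjusted p = 0.0174). That is 2 of 30, against 33.4% of all tested transcripts. In voom 98 were tested, of which 15 were called higher and 11 lower, against 13.3% and 28.5% over all genes. Without *Irx1* and *Irx2* the list's median change in limma was 0.04, against -0.11 over all transcripts. The count of 2 rose to 10 without library 1 at 2.8 mM, to 6 without library 2 at 2.8 mM and to 10 without library 2 at 16.8 mM, so it rested on single libraries. Of the 100 genes most enriched in beta cells, 59 were tested in limma, with a median change of 0.31. Of these 29 rose and 8 fell, against 10.7% higher and 22.8% lower over all transcripts. The largest rises were those of *Ttyh1* (3.16), *G6pc2* (2.80) and *Mafa*, and the largest falls those of *Trib3* (-1.96), *Atp2a2* (-1.11) and *Cox6a2* (-0.89). Voom called 52 of 95 higher and 19 lower, against 13.3% and 28.5% over all genes.

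Set against *Gcg*, the abundant message of the same cells, the Iroquois genes were higher in both 16.8 mM libraries than in either 2.8 mM library. *Irx1* had 0.674 and 0.702 RPKM for every 1000 RPKM of *Gcg* at 2.8 mM and 0.791 and 0.987 at 16.8 mM, a log2 change of the ratio of 0.36 (exact permutation test, p = 0.333, the smallest possible). *Irx2* had 1.26 and 1.19 and then 1.43 and 1.63, a change of 0.32 (exact permutation test, p = 0.333). *Pou3f4* had 0.476 and 0.290 and then 0.296 and 0.382, with overlapping groups and a change of -0.14 (exact permutation test, p = 1). These ratios were chosen after the values were seen, and they show unequal change of 2 messages, not which of them changed.

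At 2.8 mM library 1 exceeded library 2 by 1.25-fold for *Irx1* and 1.38-fold for *Irx2*, and at 16.8 mM by 1.14-fold and 1.26-fold. The Poisson intervals of the 2 libraries do not overlap for *Irx2* at either concentration, nor for *Irx1* at 2.8 mM. Over all transcripts library 1 was higher at both concentrations in 74.5% of 7837. The median ratio of library 1 to library 2 over all 7837 was 1.08 at each concentration. The 2.8 mM ratio of *Irx2* was above that of 97.3% of transcripts and its 16.8 mM ratio above that of 94.4%, whereas *Irx1* was above 93.7% at 2.8 mM but only 76.2% at 16.8 mM. *Gcg* (1.30-fold and 1.42-fold) was above 95.7% and 97.9%. Of the 28 other tested genes of the alpha-enriched list, 26 were higher in library 1 at both concentrations. The pancreatic polypeptide gene *Ppy* also followed this order, as did the 3 tested delta cell markers (median log2 ratios 0.47 and 0.30) and the 2 tested macrophage markers (0.50 and 0.55), so it was not particular to alpha cell genes. All 6 acinar markers had the opposite order. The part of alpha cell or acinar content in the members' values was not tested.

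**Figure D5:**
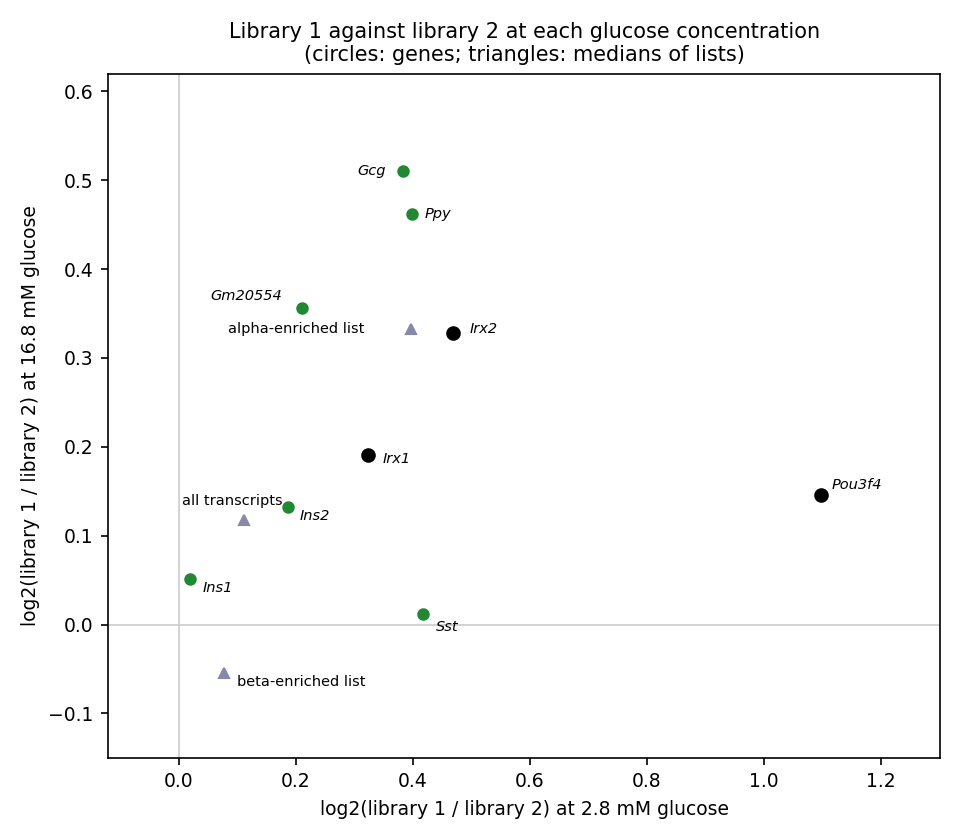
Log2 ratio of library 1 to library 2 at 2.8 mM (x axis) and at 16.8 mM glucose (y axis) for single genes (circles, with the 3 members in black) and medians of gene lists (triangles). *Irx2* (0.47 and 0.33) lies near the alpha-enriched list, *Irx1* (0.32 and 0.19) lies between it and the median of all transcripts (0.11 and 0.12) on the y axis, and *Pou3f4* stands apart at 1.10 and 0.15; the acinar list, at -1.48 and -1.04, is beyond the drawn range.

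*Pou3f4* had a profile of its own. Library 1 at 2.8 mM exceeded library 2 by 2.14-fold, against 1.11-fold at 16.8 mM. The summed level of 4 stromal cell markers (*Col1a1*, *Col1a2*, *Col3a1* and *Pdgfrb*) had a like order at 2.8 mM, with 3.29 and 1.59 RPKM there and 2.37 and 2.54 RPKM at 16.8 mM. Among the 4471 coding genes within 2-fold of its mean, those nearest to *Pou3f4* over the 4 libraries, by the distance between centred log2(RPKM + 0.5) values, were *Bgn* (0.097), *Olfml3* (0.110) and *Gpnmb* (0.147), and 8 genes lay within 0.2. *Bgn*, an extracellular matrix proteoglycan, measured 1.62, 0.795, 1.04 and 1.04 RPKM in the same order of libraries. Whether stromal content has a part in the *Pou3f4* values was not tested, and with 4 libraries such likeness describes these libraries only.

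For *Irx1* the nearest of 5799 coding genes were *Eml3* (0.0182), a microtubule-binding protein, *Selk* (0.0213), a selenoprotein of the endoplasmic reticulum, and *Ndufc1* (0.0307), a subunit of respiratory complex I. As many as 1070 genes lay within 0.2, and *Irx2* came at place 496. For *Irx2* the nearest were *Gpx3* (0.077), a glutathione peroxidase, *Id2* (0.0842), an inhibitor of helix-loop-helix factors, and *1600002K03Rik* (0.0916), with 193 genes within 0.2 and *Irx1* at place 40. *Gpx3* measured 21.9 and 16.7 RPKM at 2.8 mM and 24.7 and 18.8 RPKM at 16.8 mM, and none of these 6 genes passed in limma.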

How the data were processed

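Total RNA of pooled mouse islets was sequenced in 4 libraries, 2 at each glucose concentration, grouped by the glucose values in the labels. The authors deposited 1 table of RPKM values with 33923 entries (28047 of them different), with 1 column of values for each library and no other column of sample values. The submitters' processing notes name STAR, bedtools, DESeq and the mm9 build (NCBI build 37) without versions. Tests on the table showed that RPKM was computed over the genomic span of a transcript. Depths of 50800000 to 60710000 reads were those that best gave whole read numbers in genes with 1 entry and an equal span in both annotations used. Among 784 to 848 such genes with low values in a library, 96.8% to 97.4% were then whole within 0.1 reads. That share does not cover the other genes. A span was assigned to 98.3% of entries. Where it is wrong the read number is too, as for *Pou3f2*, with 0 reads at 0.0027 RPKM in library 1 at 2.8 mM. The use of strand in counting is not given in the sources used here, so overlapping genes may share reads. Intervals of read numbers cover counting error only, and PCR copies cannot be told apart.

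The study names a count comparison, but the table holds RPKM, so log2(RPKM + 0.5) was tested with limma 3.58.1 in R 4.3.3 (variance trend, Benjamini-Hochberg adjustment, threshold 0.05) where the mean reached 1 RPKM. A fold change on this scale understates that of low genes. *Pou3f4* and other genes below that mean were tested with limma's voom on reads reconstructed from RPKM, span and depth, where the mean reached 20 reads. Python 3.11.15, pandas 2.3.3, numpy 2.4.6 and scipy 1.17.1 did the rest, and matplotlib 3.10.9 the figures. Both tests were tried on simulated data first.

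The members and gene lists were chosen with earlier results of these data known. Named genes were the members, the Iroquois genes, the alpha cell markers, regulators of the glucagon gene and beta cell factors, POU genes with a mean of at least 0.1 RPKM, genes within 1 Mb of a member, the 3 largest rises and falls past the threshold in the study's alpha- and beta-enriched lists, and for each member the 3 genes with the nearest profile. Other genes named, such as further endocrine factors, POU genes and markers of other cells, were named after their values were seen. Alternatives were other added constants, minimum levels and library scalings, no variance trend, the replicate block, voom, all entries as deposited, the ratio of means and leaving out each library. Voom scaled to the median gene, ratios to *Gcg* and voom without each library for every member were added after the data were seen. Values of 2 listed genes are counted in the lists but not reported here. Libraries of sorted cells and human data were not analysed here.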

Additional observations from a re-analysis of the deposited data

How the results depend on the processing

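*Irx1* was higher at 16.8 mM under every alternative run, and passed the threshold in 5 of them: median centring (0.28, adjusted p = 0.032), quantile normalization (0.28, adjusted p = 0.0452), the replicate block in limma (0.19, adjusted p = 0.0466) and in voom (0.25, adjusted p = 0.0493), and voom scaled to the median gene (0.41, adjusted p = 0.0247). Its change without each library in turn lay between 0.08 and 0.43. *Irx2* passed under none. Its change was -0.015 without library 2 at 2.8 mM in limma and -0.013 in voom, with a range of -0.015 to 0.37 over the libraries left out in limma and up to 0.454 in voom. *Pou3f4* passed under none, was 0.302 without library 1 at 2.8 mM and ranged from -0.78 to 0.302. The difference in change between *Irx2* and *Irx1* ranged from -0.09 to 0.061, with 0.061 without library 1 at 2.8 mM and 0.051 without library 2 at 16.8 mM. That between *Pou3f4* and *Irx1* ranged from -0.557 to -0.151, and that between *Pou3f4* and *Irx2* from -0.467 to -0.212.

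The count of 2628 transcripts past the threshold became 4900 with a minimum of 0.1 RPKM, 4067 with the replicate block, 7955 in voom and 10740 in voom with the block, and 1825 to 2579 without single libraries. The 3 alpha cell markers past it became 0 with no minimum level (4 at an unadjusted p under 0.05), 5 with at least 1 RPKM in every library, 8 in voom, 9 in voom with the replicate block, and 0 to 4 without single libraries. The 2 alpha-enriched genes became 0 with no minimum, 6 with a minimum of 0.1 RPKM, 7 with at least 1 RPKM in every library, 8 with median centring and with quantile normalization, 14 with the replicate block, 26 in voom, 45 in voom with the block and 3 to 10 without single libraries. The 4 regulators of the glucagon gene became 1 with no minimum and 8 in voom with and without the block. The background moved as well. Of 7867 transcripts 2628 passed in the main test and 4067 with the replicate block. Of 19040 genes 7955 passed in voom and 10740 in voom with the block. With no minimum 2562 of 28047 passed. Voom tested 98 alpha-enriched genes, 13 alpha cell markers and 9 regulators of the glucagon gene, against 30, 8 and 6 in limma. A larger count therefore need not mean a larger share. The cause of these moves was not tested. The replicate numbers are not said to mark a shared batch. Libraries of the same number deviated together with a correlation of 0.31 over 7867 transcripts, which with 2 pairs does not establish pairing. With 2 libraries a group, the number of libraries limits precision for *Irx1* and *Irx2*, and depth limits it also for *Pou3f4*, which had as few as 27 reads.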
